A study of Mus musculus with 11 samples.

Results

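Hemoglobin, the oxygen carrier of red cells, joins alpha and beta globin chains to heme, an iron-holding ring made in part inside mitochondria. The genes described here are 4 adult globin genes and 5 enzymes of heme synthesis, chosen by name as 9 of the 36666 genes in the count table. Hba-a1 and Hba-a2 encode alpha globin, Hbb-b1 and Hbb-b2 encode beta globin, and Alas1, Alas2, Alad, Cpox and Fech encode the enzymes. RNA was sequenced from the cerebrum of 11 male C57/Bl6 mice aged 1 year. The 7 mutator mice were homozygous for the D257A allele of Polg, which removes the proofreading activity of the mitochondrial DNA polymerase. The 4 littermate controls were 3 WT/WT mice and 1 WT/D257A mouse, mouse 237. The comparison asks which of these RNAs differ in the cerebrum when mitochondrial DNA is copied without proofreading.

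Heme synthesis starts in mitochondria, where an ALA synthase joins glycine and succinyl-CoA, passes through the cytosol and returns to mitochondria, where ferrochelatase inserts iron. Alas1 is the synthase of most tissues, and brain cells use heme for the cytochromes of the respiratory chain. Alas2 is the synthase of red cell precursors, and reticulocytes, the youngest red cells in blood, still carry globin and Alas2 RNA.

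Counts assigned to genes ranged from 28249345 (control 246) to 121182250 (control 205), with medians of 52981946 in the controls and 55741011 in the mutators. Mutator 248 stood apart: its gene counts came to 3.00 per aligned read listed for it, against 0.744 to 0.775 in the other 10 mice. The log2 differences of the 9 genes, the correlations, the Alas2 ratio and the exon result are therefore given with and without this mouse. The libraries were sequenced in multiplexed pools, and the labels do not say which mouse was in which pool, so values within pools could not be given. The labels also do not say whether blood was washed from the brains. In bulk tissue, fewer cells of a type and less RNA per cell cannot be told apart.

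All 9 genes were detected in every mouse and passed the filter on low counts. None of the 9 passed the edgeR test of 7 mutators against 4 controls at an adjusted p of 0.05, where 1.24% of all 17983 genes tested did. The genes with an unadjusted p under 0.05 numbered 2, Alas1 and Alad, against 15.8% of all genes. By DESeq2 the count was also 0, with 3 at an unadjusted p under 0.05. The ranges of the groups overlapped for each gene, so that 0 of 9 separated the groups, against 2.62% of all genes. Over all genes, 223 passed, 79 higher and 144 lower in the mutators, whereas without control 246 there were 50 higher and 43 lower. That total was 412 without control 205, 50 without control 237, 100 without control 239 and 93 without control 246. It was 125 without mutator 211, 142 without mutator 236, 112 without mutator 240 and 130 without mutator 248, and the count among the 9 genes was 0 in each of these fits.

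The globin genes varied several-fold between mice of the same genotype, and this spread was wider than the difference between the groups. Levels are given as CPM, the count of a gene scaled by TMM to a common library size, which compares 1 gene between mice. Hbb-b1, the most abundant of the 4 globin genes, stood at 35.5, 56.6, 35.9 and 117 CPM in controls 205, 237, 239 and 246. In the mutators it ran from 47.4 through a median of 69.0 to 133 CPM. Control 246 lay above 6 of the 7 mutators, and mutator 207 was the only mouse above it. The fitted log2 difference, mutator minus control, was 0.33 (SE 0.42, n = 7 and 4, edgeR adjusted p = 0.761).

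Hbb-b2, the beta globin gene with fewer counts, stood at 6.46, 8.61, 5.70 and 18.5 CPM in the same 4 controls. The mutators ranged from 10.3 to 33.0 CPM with a median of 14.5. All 7 mutators lay above controls 205, 237 and 239, and mutators 207 and 236 lay above control 246 too. The log2 difference was 0.85 (SE 0.45, edgeR adjusted p = 0.405).

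Hba-a1, an alpha globin gene, stood at 13.4, 19.8, 8.40 and 33.0 CPM in controls 205, 237, 239 and 246, against 16.6, 22.2 and 47.0 CPM for the lowest, median and highest mutator. Its log2 difference was 0.64 (SE 0.44, edgeR adjusted p = 0.530). Mutators 207 and 236 were again the mice above control 246. Hba-a2, its neighbour and near copy, stood at 8.72, 13.4, 5.46 and 20.9 CPM in the controls and at 10.1, 14.8 and 28.9 CPM in the lowest, median and highest mutator. The log2 difference was 0.54 (SE 0.44, edgeR adjusted p = 0.607), and the same pair of mutators exceeded every control. Hba-a2 had 5 of the 7 mutators above the control median, whereas the other 3 globin genes had 7 of 7.

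Single mice moved these differences both ways. Without control 246 the log2 differences were 1.03 for Hba-a1, 0.91 for Hba-a2, 0.84 for Hbb-b1 and 1.31 for Hbb-b2, and none passed the test. Without mutator 248 they were 0.74, 0.65, 0.43 and 0.96 in the same order. The lowest values were 0.38 for Hba-a1 and 0.29 for Hba-a2 without control 239, 0.13 for Hbb-b1 without control 205 and 0.60 for Hbb-b2 without mutator 207. All 4 differences therefore rested on few mice. The 4 globin genes summed to 64.0, 98.4, 55.5 and 189.7 CPM in controls 205, 237, 239 and 246, and to 84.4, 121 and 242 CPM in the lowest, median and highest mutator. The highest and lowest mice, mutator 207 and control 239, thus differed 4.36-fold.

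Alas2, the ALA synthase of red cell precursors, was the least abundant of the 9 genes and followed the globins from mouse to mouse. It stood at 2.53, 4.49, 2.05 and 8.54 CPM in controls 205, 237, 239 and 246, and at 5.22, 7.55 and 14.9 CPM in the lowest, median and highest mutator. Control 246 was again inside the mutator range, with mutators 207 and 236 above it, and the other 3 controls lay below all 7 mutators. The log2 difference was 1.02 (SE 0.47, edgeR adjusted p = 0.334). It was 1.50 (SE 0.44, adjusted p = 0.228) without control 246, 0.77 without control 239 and 1.11 (adjusted p = 0.356) without mutator 248. The adjusted p ranged from 0.00740 to 0.594 over 20 alternative fits, where those without control 237 and with 3 WT/WT controls only are the same fit. Both the lowest log2 difference of Alas2 and its lowest adjusted p came from the fit that holds the globin level constant, described with the ratios.

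The other 4 enzymes had narrow ranges in both groups. Alas1, the ALA synthase of most tissues and the enzyme that sets the rate of heme synthesis there, stood at 49.0, 51.3, 50.4 and 56.1 CPM in controls 205, 237, 239 and 246. The mutators ran from 44.1 through 46.0 to 52.6 CPM, and 5 of the 7 lay below the lowest control. The log2 difference was -0.13 (SE 0.055, edgeR adjusted p = 0.255), and it was -0.09 without control 246 and -0.12 without mutator 248. Alad, the cytosolic enzyme that joins ALA molecules into porphobilinogen, stood at 16.6, 18.3, 17.6 and 21.2 CPM in the controls and at 14.3, 16.4 and 17.5 CPM in the lowest, median and highest mutator. All 7 mutators were below the control median and 4 were below the lowest control. The log2 difference was -0.18 (SE 0.07, edgeR adjusted p = 0.227), with -0.11 without control 246 and -0.15 without mutator 248.

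Cpox, a mitochondrial enzyme late in the pathway, and Fech, the ferrochelatase that inserts iron, were nearly level across the mice. Cpox stood at 44.5, 41.0, 46.1 and 46.6 CPM in controls 205, 237, 239 and 246 and ranged from 42.6 to 46.9 CPM in the mutators. Fech stood at 57.9, 58.2, 60.5 and 60.1 CPM in the controls and ranged from 56.9 to 62.1 CPM in the mutators. The ranges lay largely on top of each other. The log2 differences were -0.0083 (SE 0.05, edgeR adjusted p = 0.958) for Cpox and 0.00018 (SE 0.04, edgeR adjusted p = 0.999) for Fech. The sign of either one changed with single mice left out, and without mutator 248 they were -0.01 and 0.0068.

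**Figure D1:**
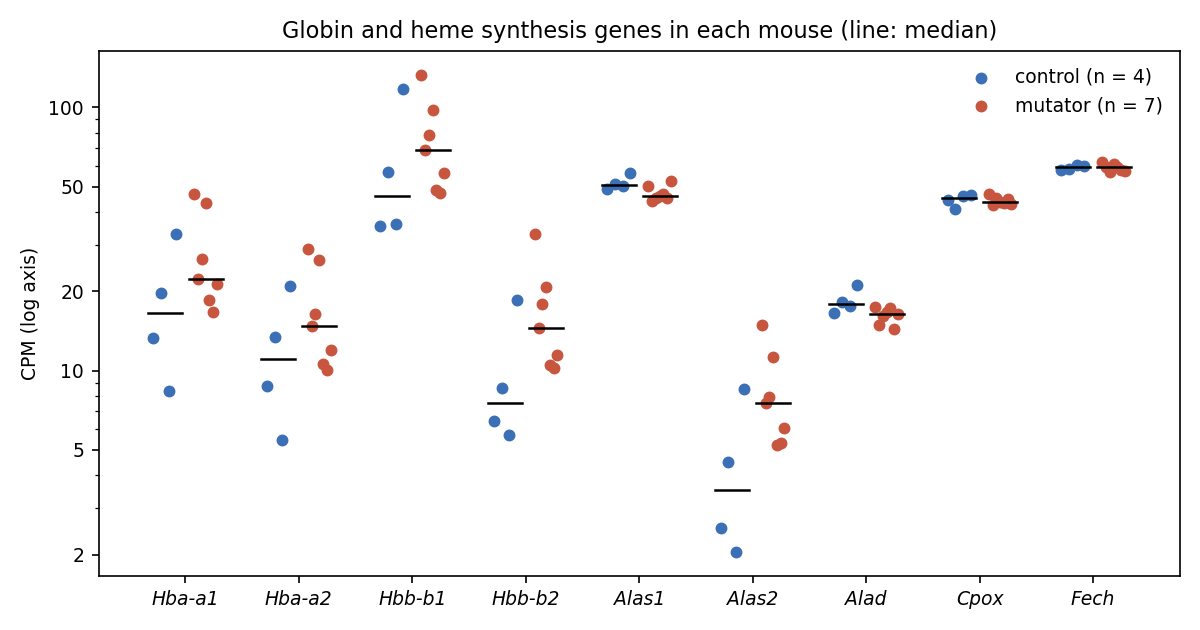
Level of each of the 9 genes in each mouse, in CPM on a log axis, for 4 controls and 7 mutators, with each group's median. The globin genes and Alas2 spread several-fold within each group (Hbb-b1 35.5 to 117 CPM in the controls), whereas Fech stayed between 56.9 and 62.1 CPM in all 11 mice.

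The genes fell into a variable and a steady set by their spread within the groups. The coefficient of variation over the 4 controls was 57.1% for Hba-a1, 55.3% for Hba-a2, 62.9% for Hbb-b1, 60.4% for Hbb-b2 and 67.1% for Alas2. It was 6.04% for Alas1, 10.7% for Alad, 5.68% for Cpox and 2.20% for Fech. Over the 7 mutators the first set ran from 40.8% (Hbb-b1) to 48.0% (Hbb-b2) and the second from 3.16% (Fech) to 7.22% (Alad). Alas2, an enzyme of the pathway, was thus placed by its spread with the globins and not with the other enzymes. From the lowest to the highest of the 11 mice, Alas2 differed 7.28-fold and Fech 1.09-fold.

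Levels of different genes were compared per length, as CPM per kilobase of annotated exon, in the 4 controls. Hbb-b1 came first at 71.1 ± 44.7 CPM per kilobase (SD, n = 4), followed by Hba-a1 at 22.9 ± 13.1, Fech at 20.4 ± 0.449, Hba-a2 at 18.1 ± 10.0 and Hbb-b2 at 14.0 ± 8.44. The SDs of neighbours overlapped down to this point, but all genes were measured in the same mice. Within each of the 4 controls Hbb-b1 lay above Hba-a1, by 2.50 to 4.03 times, and Hba-a2 above Hbb-b2, by 1.01 to 1.64 times. Hba-a1 lay above Fech in 2 controls and Fech above Hba-a2 in 3. Cpox at 14.0 ± 0.793 lay level with Hbb-b2, and Alas1 at 12 ± 0.724, Alad at 9.84 ± 1.05 and Alas2 at 1.83 ± 1.23 CPM per kilobase each lay below the one before by more than their SDs together. In the mutators Alas2 was also last, at 3.46 ± 1.49 CPM per kilobase (n = 7), and Hbb-b1 first, at 87.9 ± 35.9. By these group means Alas1 RNA, at 11.0 CPM per kilobase in the mutators, was several times as abundant per length as Alas2 RNA in both groups. The gap was smaller in mice with much Alas2, as in mutator 207 with 50.2 CPM of Alas1 and 14.9 CPM of Alas2 before scaling by length.

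Whether the genes went up and down in the same mice was asked with the 36 pairs of the 9 genes over the 11 mice, on log2 CPM. Of the 36 pairs, 11 had a permutation p adjusted over the 36 below 0.05. They were the 6 pairs of globin genes, the 4 pairs of Alas2 with a globin gene, and the pair Alas1 and Alad. The globins and Alas2 therefore moved as a block of 5 genes, apart from the other enzymes.

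Within the block the alpha genes Hba-a1 and Hba-a2 had a Pearson r of 0.993 (permutation p = 1e-05, the smallest that 100000 resamplings can give, adjusted p = 6e-05) and a Spearman rho of 0.991 (p = 1e-05, adjusted p = 7e-05). Without mice 239 and 207, the farthest from the median, r was 0.984. Hba-a1 and Hba-a2 share 85.2% of their coding windows of 100 bases, and how shared reads were counted is not stated. Shared reads may therefore set part of the r between near copies, here and for Hbb-b1 with Hbb-b2, which was not tested. The alpha and beta genes lie on different chromosomes, and Hba-a1 and Hbb-b1 had an r of 0.943 (permutation p = 2e-05, adjusted p = 8e-05) and a rho of 0.973 (p = 2e-05, adjusted p = 0.00012), with an r of 0.941 without the same pair of mice. The X-linked Alas2 and Hbb-b2 had an r of 0.979 (permutation p = 1e-05, adjusted p = 6e-05) and a rho of 0.991 (p = 1e-05, adjusted p = 7e-05), with an r of 0.973 without mice 207 and 239. Genes on chromosomes 7, 11 and X thus shared an order of the mice. Over the 6 globin pairs the median r was 0.952, and over the 4 pairs of Alas2 with a globin gene it was 0.956.

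The block held within the mutators as well. Over the 7 mutators alone, the median r was 0.974 for the 6 globin pairs and 0.987 for the 4 pairs with Alas2, each with an adjusted exact permutation p of 0.00143 or lower. The 4 controls were too few for a correlation of their own. With the group means subtracted over all 11 mice, the medians were 0.948 and 0.977. Without mutator 248 they were 0.951 and 0.964, and 11 of the 36 pairs passed.

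The 20 pairs that cross from a globin gene or Alas2 to Alas1, Alad, Cpox or Fech had r from -0.092 to 0.482 with a median of 0.182. None passed at an adjusted permutation p of 0.05, and none had an unadjusted permutation p under 0.05. With the group means subtracted, the median of these 20 pairs was 0.456 and 4 passed, in a permutation that made no allowance for the subtracted means. Over the 7 mutators alone the median was 0.491 and 0 passed (lowest adjusted exact permutation p = 0.220). Without control 239 the median was 0.414 and 2 passed, and without control 246 or mutator 207 it was 0.015 or 0.065. Without mutator 248 it was 0.141 and 0 passed. By the median r, the separation of the steady enzymes from the block was therefore less sharp within the groups.

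Alas1 and Alad, the pair at the start of the pathway in most tissues, had an r of 0.82 (permutation p = 0.00168, adjusted p = 0.00550) and a rho of 0.755 (p = 0.0104, adjusted p = 0.0341). Without control 246 and mutator 211 the r was 0.576, and without control 246 alone the pair did not pass (adjusted p = 0.0989), so the call rests on that mouse. Over the 7 mutators the r was 0.537 (exact permutation p = 0.187). The other 5 pairs among these 4 enzymes did not pass.

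**Figure D2:**
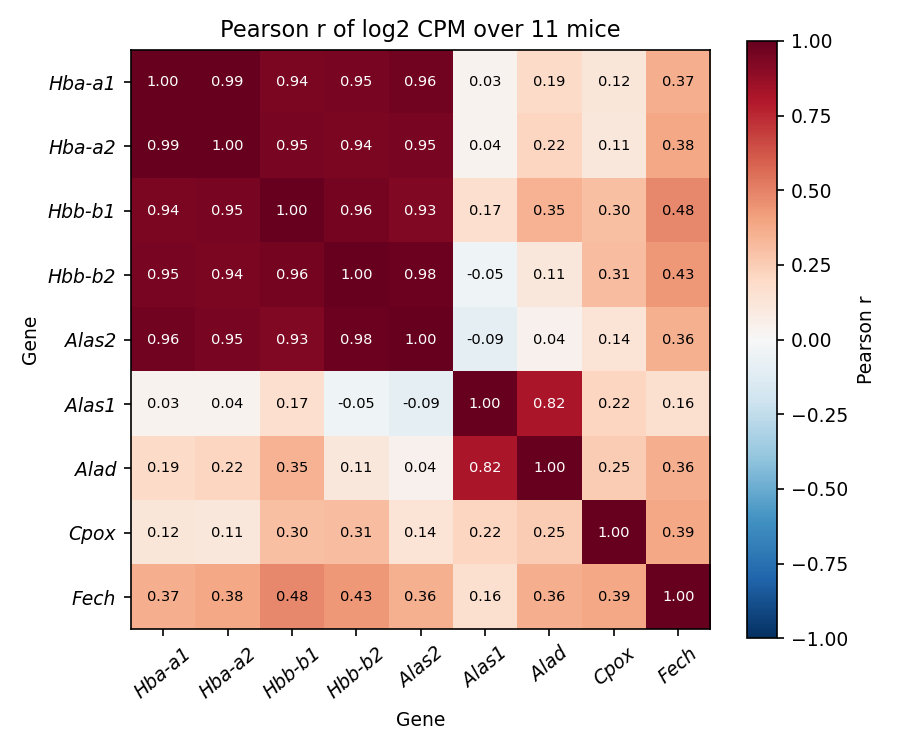
Pearson r of log2 CPM over 11 mice for the 36 pairs of the 9 genes, with genes on both axes and r as colour and number. The globin genes and Alas2 form a block with r from 0.929 to 0.993, and the 20 pairs between this block and the other enzymes lie between -0.092 and 0.482.

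The ratio of Alas2 to globin counts separated the groups where neither level did. For each 1000 counts of the 4 globin genes together, Alas2 had 39.5, 45.6, 37.0 and 45.0 counts in controls 205, 237, 239 and 246. The mutators had 56.9, 59.9 and 62.9 as lowest, median and highest. All 7 mutators lay above all 4 controls, with means of 60.4 ± 2.12 (SD, n = 7) and 41.8 ± 4.22 (SD, n = 4). Library size does not enter this ratio, and the highest mouse was mutator 248, so without it the mutators still lay above all controls. Wilson 95% intervals, which cover counting error only, were compared for the closest mice of the opposite groups. They ran from 39.5 to 52.6 in control 237 and from 51.7 to 62.7 in mutator 217, and so overlapped.

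The ratio was examined as a description, with no test planned for it. Taken in the same way for each gene tested outside the globins, counts per summed globin count separated the groups in 0.0946% of genes, 17 of 17979. The globin sum varied 4.36-fold between mice and overlapped between the groups, so a gene that does not follow the globins will seldom separate on this ratio. The share is low for that reason and is no fair background for Alas2. Of the 5 enzymes only Alas2 was among them. Control 246, whose globin level was as high as that of a high mutator, had an Alas2 ratio among the controls. Mutator 248, with the lowest globin sum of the mutators at 84.4 CPM, had the highest ratio.

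An edgeR fit with the log2 globin sum as a covariate adjusts the comparison for the globin level. Controls 205 and 239, at 64.0 and 55.5 CPM, lay below the lowest mutator at 84.4 CPM, so for them the fit extrapolates. This fit was not repeated with single mice left out. In it Alas2 rose by log2 0.50 (SE 0.09, adjusted p = 0.00740) and Alad fell, with a log2 difference of -0.25 (SE 0.07, adjusted p = 0.0481). These were 2 of the 5 enzymes, against 3.85% of all genes tested in that fit. In the other alternative fits neither gene passed, and the adjusted p for Alad reached 0.567. The globin gene Hbb-b2 also passed, but the globins make up the covariate, so they are not counted in this fit. Alas1 at -0.16 (adjusted p = 0.110), Cpox at -0.02 (adjusted p = 0.845) and Fech at -0.02 (adjusted p = 0.876) did not pass.

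**Figure D3:**
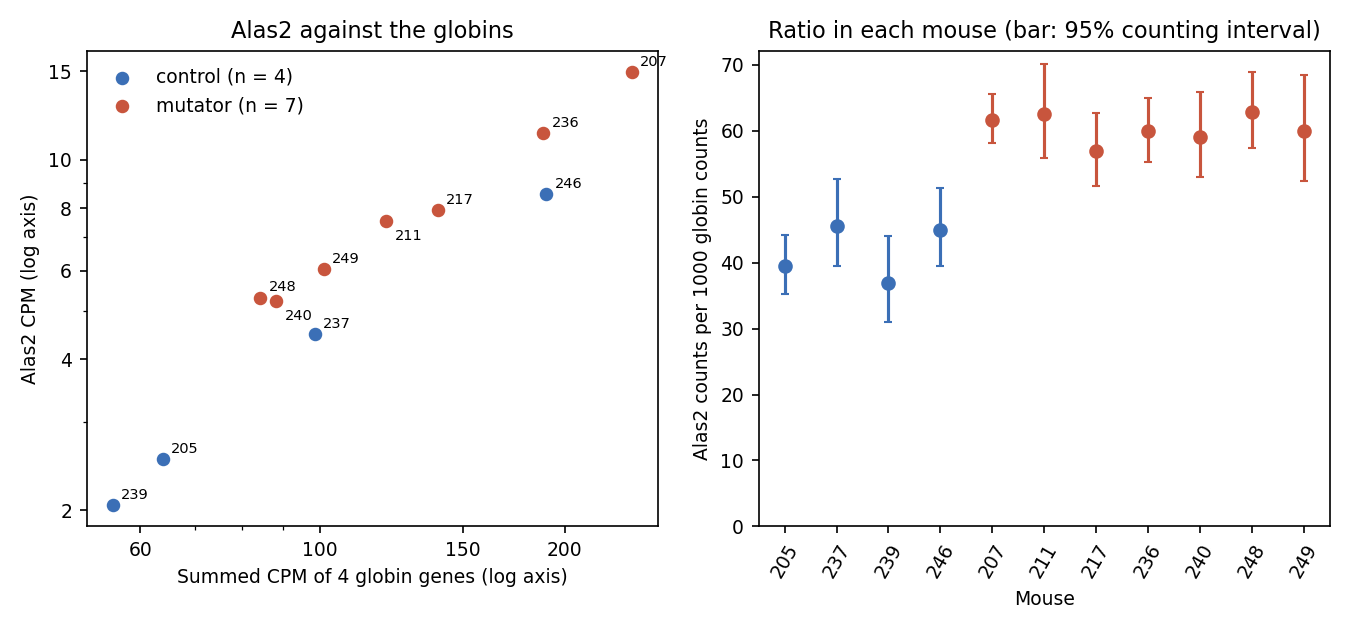
Alas2 level against the summed level of the 4 globin genes, both in CPM on log axes, with 1 point per mouse. The 7 mutators had 56.9 to 62.9 Alas2 counts per 1000 globin counts and the 4 controls 37.0 to 45.6. Controls 205 and 239, with globin sums of 64.0 and 55.5 CPM, had no mutator at a like sum (lowest mutator 84.4 CPM).

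The makeup of the globin counts also differed between mice. Hbb-b1 supplied 84.6%, 86.8%, 86.3% and 86.4% of the beta globin counts in controls 205, 237, 239 and 246. In the mutators the share was 80.1%, 82.2% and 83.1% as lowest, median and highest. All 7 mutators lay below all 4 controls, with means of 82.0 ± 0.967% (SD, n = 7) and 86.0 ± 0.966% (SD, n = 4), so Hbb-b2 made up more of the beta counts in each mutator. The closest mice were control 205, with a Wilson 95% interval of 83.6% to 85.6%, and mutator 249, with 81.6% to 84.5%, and their intervals overlapped. Mutator 248 had 82.2%, inside the range of the other mutators. Taken per Hbb-b1 count, the groups separated for 0.0779% of genes, 14 of 17982, a share that is low for the same reason as that per summed globin count. Hbb-b2 and Alas2 were among the 14, and the other 6 of the 8 genes besides Hbb-b1 were not.

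The split of alpha counts and the ratio of alpha to beta overlapped between the groups. Hba-a1 supplied 60.5%, 59.6%, 60.6% and 61.2% of alpha counts in the 4 controls and 60.1%, 62.3% and 64.0% in the lowest, median and highest mutator, with 6 of 7 mutators above the highest control. Wilson 95% intervals of 58.7% to 63.6% in control 246 and 60.4% to 64.2% in mutator 248 overlapped. Alpha counts per beta count were 0.527, 0.510, 0.333 and 0.397 in the controls and 0.442, 0.463 and 0.588 in the lowest, median and highest mutator. The highest was mutator 236, and control 205 lay above the other 6 mutators. The ratio of alpha to beta counts was thus the most uneven of these shares within a group.

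These splits depend on reads that tell near copies apart. In the annotation used, the coding sequences of Hba-a1 and Hba-a2 are 429 bases long with 1 mismatch, an identity of 99.8%, and 281 of their 330 windows of 100 bases (85.2%) are the same in both. Hbb-b1 and Hbb-b2 are 444 bases long with 1 mismatch, and 317 of 345 windows (91.9%) are the same in both. Over whole transcripts the shared windows were 56.5% of those of Hba-a1 and 74.5% of those of Hba-a2, and 48.7% of those of Hbb-b1 and 54.8% of those of Hbb-b2. How reads that match both copies were counted is not stated in the labels. The level of each copy, and the split within each pair, is therefore uncertain. Alas1 and Alas2, by contrast, share no window of 100 bases, so that counts of these synthases do not mix.

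The coding mismatches are shown because reads over them are the ones that separate the copies inside the coding sequence. Each stretch is read 5′ to 3′ along the gene in build mm9, with the differing base in capitals, and positions are counted from 1 at the A of the start codon. The Hba-a1 stretch lies at chr11:32184328-32184358 on the plus strand and the Hba-a2 stretch at chr11:32197145-32197175 on the plus strand, and they differ by C381T. The Hbb-b1 stretch lies at chr7:110975191-110975221 on the minus strand and the Hbb-b2 stretch at chr7:110961182-110961212 on the minus strand, and they differ by C417T.
Hba-a1: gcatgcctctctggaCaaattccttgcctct
Hba-a2: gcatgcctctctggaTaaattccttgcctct
Hbb-b1: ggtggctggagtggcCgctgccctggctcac
Hbb-b2: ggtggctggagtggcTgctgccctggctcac

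The members of each globin pair also lie close together on a chromosome. In mm9 Hba-a1 spans chr11:32183511-32184465 and Hba-a2 chr11:32196489-32197301, both on the plus strand. Hbb-b1 spans chr7:110975048-110976610 and Hbb-b2 chr7:110961038-110962510, both on the minus strand. The enzymes are scattered, with Alas1 at chr9:106135786-106150457 on the minus strand, Alas2 at chrX:146981918-147005181 on the plus strand, Alad at chr4:62170203-62180952 on the minus strand and Cpox at chr16:58670321-58680504 on the plus strand. Neighbours on a chromosome and genes on different chromosomes were thus both found in the block that moved together.

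Promoters of Hba-a2, Alas2 and Cpox are shown to set 2 genes of the block beside a steady enzyme. The RefSeq promoter table for build GRCm38.p6 held 6 of the 9 genes, with no entry for Hbb-b1, Hbb-b2 and Fech. The 250 bases before each start were searched on both strands for GATAA, which reads TTATC on the other strand and is the core of sites bound by GATA factors. They were also searched for CACCC, which reads GGGTG on the other strand and is the core of sites bound by erythroid Krüppel-like factor. Matches are in capitals. The Hba-a2 promoter lies at chr11:32296242-32296491, the Alas2 stretch at chrX:150547167-150547374 and the Cpox promoter at chr16:58669958-58670207, all on the plus strand. From Alas2 the 42 bases nearest the start were left off, since the annotation counts them as transcribed.
Hba-a2: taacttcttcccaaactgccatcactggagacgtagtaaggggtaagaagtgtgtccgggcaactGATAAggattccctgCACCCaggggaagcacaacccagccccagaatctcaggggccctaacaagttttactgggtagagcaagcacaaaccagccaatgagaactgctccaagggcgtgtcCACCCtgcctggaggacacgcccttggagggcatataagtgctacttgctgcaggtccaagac
Alas2: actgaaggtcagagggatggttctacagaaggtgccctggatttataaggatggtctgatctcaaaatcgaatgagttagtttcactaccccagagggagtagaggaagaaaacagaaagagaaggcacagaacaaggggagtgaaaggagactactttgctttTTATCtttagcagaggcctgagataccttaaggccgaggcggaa
Cpox: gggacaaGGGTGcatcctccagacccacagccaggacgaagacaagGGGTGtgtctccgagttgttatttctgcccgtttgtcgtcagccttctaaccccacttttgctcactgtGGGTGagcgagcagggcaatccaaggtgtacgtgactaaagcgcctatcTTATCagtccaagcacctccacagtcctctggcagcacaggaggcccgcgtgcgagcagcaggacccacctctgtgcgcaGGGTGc

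Both letter groups occurred in genes of the block and outside it. Hba-a1 and Hba-a2 each had 1 GATAA and 2 CACCC in 250 bases, and Cpox, which did not move with the globins, had 1 and 4. Alas2 had 1 and 3, but none of its 3 CACCC lay within the 208 bases printed, so they touch the 42 bases annotated as transcribed. Alas1 and Alad, with 2 starts each in the table, had no GATAA, and the starts had 0 or 1 CACCC. Among all 32851 promoters of this length, 22.6% held GATAA, 52.0% held CACCC and 10.1% held both. A match describes letters only and does not show that a factor binds there.

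The use of exon parts within the 9 genes was compared between 7 mutators and 3 WT/WT controls, since the exon files used hold no counts of the WT/D257A mouse. Of 110 annotated exon bins of the 9 genes, 85 were tested. None passed by limma diffSplice, against 0.0121% of all 206930 bins, and 1 had an unadjusted p under 0.05, against 5576 of all bins. By edgeR diffSpliceDGE the counts were also 0 and 1.

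That bin was bin 12 of Fech, named after its p was seen and given as a description. Of all bin counts of Fech it held 2.71 ± 0.793% (SD, n = 3) in the controls used and 2.15 ± 0.472% (SD, n = 7) among mutators. Its log2 difference in use was -0.29 (SE 0.12, limma adjusted p = 1). Control 205 and control 239 decided the value: without control 205 it was -0.67 (adjusted p = 0.0125), which was then the only bin of the 9 genes to pass, and without control 239 it was -0.04. Without mutator 248 it was -0.19, and 0 bins of the 9 genes then had an unadjusted p under 0.05 by limma. Alas2 had counts in 15 of its 17 bins, so that its RNA was seen along most of the annotated gene and not in 1 exon alone.

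Uros, Urod and Ppox are further enzymes of heme synthesis. None of the 3 passed the edgeR or the DESeq2 test, and none had an unadjusted p under 0.05 by either. Urod, the most abundant of them by count, which trims the side chains of the ring, had 32.3 ± 3.35 CPM in the controls and 29.4 ± 1.92 in the mutators (log2 -0.13, edgeR adjusted p = 0.356). Uros, which closes the ring, had 21.3 ± 0.629 and 20.3 ± 1.25 CPM (log2 -0.07, adjusted p = 0.577). Ppox, the step before ferrochelatase, had 24.0 ± 2.61 and 23.6 ± 0.659 CPM (log2 -0.02, adjusted p = 0.907), and its sign changed without control 237 (log2 0.05). The difference of Urod was -0.06 without control 246 and that of Uros was -0.04 without mutator 207. All 3 overlapped between groups and none showed the several-fold spread of Alas2.

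Genes that supply mitochondria with glycine, iron and iron-sulfur clusters for heme were tested as a list of 16. None passed by edgeR or DESeq2, with an unadjusted p under 0.05 by edgeR for 2 higher and 4 lower, against 15.8% of all genes in either direction. Their median log2 difference was -0.03, against 0.0014 for all genes. Pgrmc1, a heme-binding membrane protein and the most abundant of them by count, ran from 239 to 273 CPM in the controls and from 273 to 297 CPM in the mutators (log2 0.12, SE 0.04, adjusted p = 0.170). All 7 mutators lay above the highest control, by a small margin, where 2.62% of all genes had groups that did not overlap.

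Heme breakdown, transport and sensing was covered by 21 genes, and none of them passed by edgeR or DESeq2. An unadjusted p under 0.05 was reached in edgeR by 2 higher and 3 lower, against 15.8% of all genes. The median log2 difference was -0.03. The iron store Fth1, most abundant by count, had 1631 ± 166 CPM in the controls and 1714 ± 139 in the mutators (log2 0.07, adjusted p = 0.634). Cd163, the macrophage receptor for hemoglobin bound to haptoglobin, was named after its values were seen. It ran from 2.58 to 3.30 CPM in the controls and from 3.33 to 4.38 CPM in the mutators (log2 0.35, SE 0.11, adjusted p = 0.134), with all 7 mutators above the highest control. Abcg2, an exporter of porphyrins also named after its values were seen, went the other way with a like adjusted p. It had no less than 16.8 CPM in any control and ran from 14.5 to 16.6 CPM in the mutators (log2 -0.19, SE 0.06, adjusted p = 0.135), with all 7 mutators below the lowest control. Among all genes, 2.62% had groups that did not overlap, and Cd163 and Abcg2 were picked for their values.

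Of 13 other globin names, 10 were in the table and 6 were tested, with 0 passing by edgeR or DESeq2. At an unadjusted p under 0.05 by edgeR, 2 were higher, against 15.8% of all genes in either direction. The median log2 difference of the 6 was 0.31. Cygb, the cytoglobin of many tissues, was the most abundant by count at 62.4 ± 2.55 CPM in the controls and 64.5 ± 7.84 in the mutators. Ngb, the globin of neurons, named after its values were seen, had 7.48 ± 1.78 and 10.7 ± 2.05 CPM (log2 0.49, SE 0.17, adjusted p = 0.171), and 6 of 7 mutators exceeded the highest control. The embryonic beta gene Hbb-y had 0 or 1 counts in each control and 1 to 9 in each mutator and was not tested. In CPM 4 of 7 mutators were above its highest control. Hbb-bh1 and Gm5736 had no counts in any mouse.

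Markers of red cells and their precursors were measured beside the globins. Of 24 names 21 were found and 8 were tested, with 0 passing by edgeR or DESeq2. At an unadjusted p under 0.05 by edgeR, 1 was higher and 1 lower, against 15.8% of all genes. Their summed level was 457, 512, 499 and 496 CPM in controls 205, 237, 239 and 246 and 437 to 491 CPM in the mutators, and it was made up mostly of spectrin and adducin genes that neurons express. Of the 8 tested, 6 had a log2 difference below 0, and the median was -0.08. Spnb1, the most abundant with a mean of 264 CPM, was the lower gene at an unadjusted p under 0.05 (log2 -0.12, SE 0.05, edgeR adjusted p = 0.216), with all 7 mutators below its control median. The markers that define red cells were at or near 0: 15 of the 21 genes had a mean below 0.2 CPM, and Gfi1b and Icam4 had no counts. Slc4a1, the anion exchanger of red cells, had 1 to 5 counts in the controls and 5 to 33 in the mutators. In CPM it ran from 0.0160 to 0.182 in the controls, highest in control 246, and from 0.0911 to 0.439 in the mutators, with 3 of 7 mutators above the highest control. The higher gene at an unadjusted p under 0.05 was Trim58, a ubiquitin ligase of late red cell precursors, with 3 to 14 counts in the controls and 6 to 18 in the mutators (log2 0.97, SE 0.43, edgeR adjusted p = 0.270). All 7 mutators were above its control median in CPM and 4 were above the highest control. Their part in the globin and Alas2 values was not tested.

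Markers of other blood cells ranged from genes with few counts to the lymphocyte gene Igh-6 at 24.9 CPM. The 12 platelet genes summed to 11.5, 14.8, 12.3 and 12.1 CPM in controls 205, 237, 239 and 246 and to 11.5 to 16.8 CPM in the mutators, with Gp1bb the most abundant at 5.29 CPM. Of 10 tested, 2 rose by edgeR, against 1.24% of all genes called in either direction, and none fell by edgeR or DESeq2. At an unadjusted p under 0.05 there were 5 higher and 2 lower, against 15.8% of all genes. Ppbp, a platelet chemokine, had 1 to 5 counts in each control and 15 to 65 in each mutator (log2 3.83, SE 0.63, adjusted p = 0.00483), higher in 7 of 7 mutators, and was the 1 gene of the list that DESeq2 called. Tubb1, the tubulin of platelets, had 0 or 1 counts in each control and 2 to 34 in each mutator (adjusted p = 0.00483), higher in 7 of 7. The ratio of its summed counts at equal depth was 41.1, with an exact 95% interval for counting error of 11.2 to 343. Both genes were rare in the tissue, and their part in the globin values was not tested. With few counts in the controls, both passed the filter on low counts through the mutators alone. Such a filter favours genes higher in the mutators, so the count of 2 is given as a description. Over the alternative fits that gave an adjusted p, edgeR without this filter among them, it was at most 0.0388 for Ppbp and 0.0352 for Tubb1.

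The 10 neutrophil genes summed to 7.78, 11.1, 7.60 and 37.8 CPM in controls 205, 237, 239 and 246, and to 13.8 to 23.9 CPM in the mutators. Control 246, the control with the highest summed globin CPM, thus also had the highest summed CPM of this list. S100a9, a calcium-binding protein of neutrophils named after its values were seen, had 7.52 CPM in that mouse, 0.230 to 0.288 CPM in the other controls and 1.17 to 3.73 CPM in the mutators (log2 0.42, SE 0.99, edgeR adjusted p = 0.880). All 7 mutators thus lay between control 246 and the other 3 controls. None of the 8 genes tested passed by edgeR or DESeq2. At an unadjusted p under 0.05 by edgeR, 2 were higher, against 15.8% of all genes in either direction. The median log2 difference was 1.14, and Csf3r was the most abundant at 9.64 CPM. The part of these cells in the values of control 246 was not tested.

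The 11 lymphocyte genes summed to 34.2, 30.5, 30.1 and 39.8 CPM in the same 4 controls and to 19.0 to 27.2 CPM in the mutators. Of 4 tested, 1 passed by edgeR, against 1.24% of all genes called in either direction. That gene, Igk-C, an immunoglobulin light chain, fell from 0.772 ± 0.249 to 0.217 ± 0.0621 CPM (log2 -1.89, SE 0.28, edgeR adjusted p = 0.00208), lower in 7 of 7 mutators. Igh-6, the heavy chain gene and most abundant at 24.9 CPM, had a log2 difference of -0.50 (SE 0.13, edgeR adjusted p = 0.0807). All 7 mutators lay below its lowest control, where 2.62% of all genes had groups that did not overlap. DESeq2 called Igh-6 as well as Igk-C, against 615 of 28103 genes. That total holds every gene with a count, also those without a DESeq2 adjusted p, so the share among genes with one is higher. Lists of blood cells therefore did not share a direction. Endothelial genes, the lining of the vessels that hold blood, numbered 10, with 0 passing by edgeR. At an unadjusted p under 0.05 by edgeR, 3 were higher and 2 lower, against 15.8% of all genes. DESeq2 called 3 of the 10, Flt1 and Kdr higher and Slco1c1 lower, against 615 of 28103 genes. Their sum was 244, 272, 240 and 302 CPM in the controls and 244 to 325 CPM in the mutators, and Flt1 was the most abundant at 82.8 CPM (log2 0.36, SE 0.09, adjusted p = 0.0615). The part of vessel or lymphocyte content in the globin values was not tested.

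The labelled tissue was checked against markers of brain cells, which dominated. The 6 neuron genes found summed to 5627 to 5989 CPM in the controls and 5477 to 5874 CPM in the mutators, led by Snap25 at a mean of 2179 CPM. The 5 oligodendrocyte genes were led by Mbp at 3038 CPM, the 5 astrocyte genes by Aldoc at 814 CPM and the 5 microglia genes by Csf1r at 87.4 CPM. None of these 21 genes passed by edgeR. DESeq2 called 1, the myelin gene Mag, lower, against 615 of the 28103 genes with a count. The unadjusted edgeR p was under 0.05 for 1 higher and 1 lower neuron gene and 1 higher astrocyte gene. It was also under 0.05 for 2 lower oligodendrocyte genes and 3 lower microglia genes, where 15.8% of all genes reached it.

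No gene outside the block followed the globins as closely as Alas2 did. Over the 11 mice, 17974 other genes were ranked by Pearson r of log2 CPM with the log2 globin sum, as a description. The 10 highest were Ckap4 (0.90), Ubxn1 (0.891), Surf1 (0.883), Ube2l6 (0.864), Sds (0.864), A330033J07Rik (0.850), Kazald1 (0.846), Zfp408 (0.842), Tap2 (0.841) and Stoml2 (0.839). Alas2 had 0.958, and the median of all other genes was -0.0121. The red cell gene Trim58 had 0.805, but the other red cell markers tested ran only from -0.196 (Rhd) to 0.515 (Tal1). Over the 7 mutators alone the 10 genes had values from 0.722 (Tap2) to 0.909 (Kazald1), against 0.996 for Alas2. None of the 10 differed between mutators and controls by edgeR (adjusted p from 0.175 for Ube2l6 to 0.992 for Zfp408). Of the 10, 1 gene, Ube2l6, had an unadjusted p under 0.05, against 15.8% of all genes. Their ranges were also narrower than those of the globins, as for Ckap4 with 18.6 to 22.4 CPM in the 11 mice.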

How the data were processed

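RNA from the cerebrum of 11 mice was sequenced by the authors. The deposited gene table holds raw counts per gene, and the deposited exon files, for 10 mice, hold raw counts per exon bin, with 20.6% to 23.4% of reads in no bin. The deposited read totals hold reads listed, unmapped and aligned per mouse. The submitters' notes name CASAVA 1.7.1, TopHat2 2.0.6, Bowtie2 2.0.2.0, the mm9 genome and HTSeq 0.5.3p9. The deposited DESeq and DEXSeq tables hold the authors' own comparison of mutators and controls and were not used.

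Genes were tested with edgeR 4.0.16 (filterByExpr, TMM, robust quasi-likelihood, R 4.3.3) and exon bins with limma 3.58.1 (voom, diffSplice). P-values were adjusted by Benjamini-Hochberg over all features tested, at 0.05. Log2 CPM used a prior count of 2. Correlations used 2-sided permutation tests, 100000 resamplings over 11 mice and all 5040 orders over 7 mutators, adjusted over 36 pairs. Both fits were tested on simulated data. Exon lengths and transcript sequences come from GENCODE vM1, which is later than the authors' Ensembl annotation, and promoters from RefSeq. Alternatives were DESeq2 1.42.0, other normalizations and filters, 3 WT/WT controls only, globin counts left out of library sizes, total count or globin level as covariates, diffSpliceDGE, other scales for the correlations and leaving out each mouse.

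Each of the 9 genes is named. From each list (other heme enzymes, mitochondrial supply, heme breakdown, other globins, erythroid, platelet, neutrophil, lymphocyte, endothelial, neuron, astrocyte, oligodendrocyte and microglia genes) the genes passing the test and the most abundant are named, with further genes of the short list of heme enzymes. Cd163, Abcg2, Ngb, Hbb-y, Trim58, Slc4a1, S100a9 and the genes called by DESeq2 alone were named after their values were seen, as were genes at 0. The 10 genes most like the globins are those with the highest r. The 9 genes and the lists were chosen with earlier results of these data known. No gene stood on more than 1 list.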

Additional observations from a re-analysis of the deposited data

Results flagged for a closer look

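Mutator 248 had 3.00 gene counts per aligned read, and the other 6 mutators had 0.744 to 0.772. The gap between this mouse and the next was 0.988 of the range of the 7 mutators, which put it far from the others. Among the ratios, mutator 236 had 0.588 alpha globin counts per beta globin count, and the other mutators had 0.442 to 0.493. This gap was 0.651 of the range. In all, 36 groups of 4 or 7 mice were examined for a mouse far from the others and 2 had one. Chance alone marks about 1 in 20 groups, or 1.8 of 36. The cause was not tested for either mouse.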

How the results depend on the processing

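Of the 9 genes, 0 passed under each alternative tried except with the globin level as a covariate. There 2 of the 5 enzymes passed (Alas2 and Alad), and the globins, of which Hbb-b2 also passed, are not counted since they make up the covariate. The number of all genes passing, 223, was 615 by DESeq2, 346 without a filter, 50 with 3 WT/WT controls, 693 with the globin covariate and 50 to 412 with 1 mouse left out. Fewer controls were used for the 50. The share of higher genes among those passing was 35.4%, 48.0% with 3 WT/WT controls and 32.5% to 53.8% with 1 mouse left out, the highest without control 246. The number of exon bins passing, 25, was 49 by diffSpliceDGE and 2 to 281 with 1 mouse left out, with 0 to 1 bins of the 9 genes. The 11 correlated pairs were 15 with the group means subtracted, 10 over the 7 mutators and 10 to 13 with 1 mouse left out.

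Every log2 difference of the 4 globins, Alas2, Alas1, Alad, Uros, Urod, Ppbp, Tubb1 and Igk-C kept its sign under the alternatives run. Others changed sign. Fech was -3.63e-06 without a filter, -0.0062 with 3 WT/WT controls, -0.017 with the globin covariate and -0.012 to 0.011 with 1 mouse left out. Cpox was -0.044 to 0.013 with 1 mouse left out. Ppox was 0.050 with 3 WT/WT controls and -0.079 to 0.050 with 1 mouse left out. The cause was not tested. DESeq2 gave no adjusted p for Tubb1.

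The group of 4 controls limits the precision. Sequencing pool and the origin of the surplus counts of mutator 248 could not be examined, and blood content was seen only through marker genes. Counts of near copies are uncertain. No paired analysis was possible because the labels give no replicate numbers shared across the groups.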
